A study of Mus musculus with 2 samples.

Results

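The transcripts of 40 cell cycle genes were followed across the immune cells of a mouse tumour and 2 kinds of lymph node. The 40 genes were chosen by name, and each symbol matched 1 of the 12638 genes of the expression matrix. They fall into an S phase group of 11 genes, a mitotic group of 22 genes and a group of 7 genes called broadly expressed here (Stmn1, Tubb5, Hmgb2, Cks1b, Cks2, Smc2 and Smc4). For every cell the mean natural log value of the 40 genes and the number detected were computed, and cells were then averaged by mouse, tissue and cell class.

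The cells came from 4 C57Bl6 mice with subcutaneous MC38-OVAdim tumours, a mouse colon carcinoma line that carries ovalbumin. The 2 control mice (WT1 and WT2) had floxed alleles of Havcr2 (Havcr2 fl/fl), the gene of the inhibitory receptor TIM-3, and in the other 2 (KO1 and KO2) the gene had been targeted. The sources used here give neither the deleting Cre line nor the exons removed, nor the age of the mice or the day of harvest. Tumour, draining node (dLN) and non-draining node (ndLN) of each animal were sorted for CD45+ cells with enrichment of dendritic cells, which gave 12 samples of single-cell 5′ RNA sequencing in 2 droplet channels of 1 WT and 1 KO mouse each.

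The matrix held 12458 cells, 473 to 1691 per sample, with 3031124 to 28498154 unique molecular identifiers (UMIs) per sample. Median depth per cell was 15191 UMIs in the tumour samples against 4520 in dLN and 4633 in ndLN. For this reason shares of cells were compared after each cell had been thinned to 2000 UMIs and shallower cells left out. The 2 channels shared 65 cell barcodes, and 706 cells had 5% or more mitochondrial UMIs. Doublets were not removed here. As a check of the genotype labels, Havcr2 in cDC1 of the dLN stood at 1.19 and 1.42 UMIs per 10000 in WT1 and WT2 and at 0.0117 and 0.0302 in KO1 and KO2 (limma, adjusted p = 1.08e-05). In tumour monocytes it stood at 1.21 and 1.57 in WT against 0.820 and 0.709 in KO, a difference that did not pass (limma, adjusted p = 0.933).

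A dividing cell copies its DNA in S phase, sorts the copies in mitosis and then splits. Genes of DNA replication are switched on by E2F factors at the start of S phase, whereas most mitotic genes are switched on later by complexes that bind the cell cycle homology region (CHR) and CCAAT boxes of their promoters. Differentiated myeloid cells were long held to arise mainly from dividing precursors, although macrophages can divide in tissues, and lymphocytes divide after meeting antigen. Among the members, Mcm2 to Mcm7 form the helicase that is loaded on origins and Pcna is the sliding clamp of the polymerases. Tk1, Tyms, Rrm1 and Rrm2 supply nucleotides. Ccna2, Ccnb1 and Ccnb2 are cyclins, Cdk1 is the mitotic kinase they activate, and Cks1b and Cks2 are small partners of such kinases. Top2a untangles DNA, Mki67 encodes the Ki-67 antigen that coats mitotic chromosomes, and Smc2 and Smc4 are condensin subunits. Cenpa, Cenpe, Cenpf, Bub1, Birc5, Aurkb and Cdca8 act at the centromere, the checkpoint or the chromosomal passenger complex. Aurka, Plk1, Tpx2, Nusap1, Prc1, Kif11 and Kif23 build the spindle and its midzone, and Ube2c and Cdca3 belong to the protein destruction around mitosis.

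The promoters of the members were searched for these letters. RefSeq promoter windows of GRCm38.p6, from 250 bases before to 50 bases after the start, were matched for 34 of the 40 genes, 2 of which had 2 windows, and a gene was counted once if any of its windows held the letters. The CHR letters, TTTGAA and as a variant form TTCGAA, were read on either strand. They occurred in 15 of the 19 mitotic genes matched, 2 of the 10 S phase genes and 3 of the 5 broadly expressed genes, against 21.7% of 27025 genes. The E2F letters were TTCCCGC, with the related words TTGGCGC, then the form TTCGCGC, and lastly the form TTGCCGC, read on either strand with overlaps allowed. They occurred in 6 of the 10 S phase genes and 3 of the 19 mitotic genes, against 10.9% of genes. CCAAT on either strand occurred in 30 of the 34 members and in 41.1% of genes. It was in most genes of each group: 8 of 10 S phase, 17 of 19 mitotic and 5 of 5 broadly expressed genes. A match describes the letters only and shows no binding. The windows below, written 5′ to 3′ along the gene, belong to 1 gene of the S phase group and 2 of the mitotic group. They are shown so that the letters can be read in place, and were picked among the windows with several matches. CCAAT does not part the groups, and the 2 CCAAT matches of Mcm6 are left in lower case. In Mcm6 (minus strand, chr1:128359656-128359955) capitals mark the E2F letters, and in Ccnb2 (minus strand, chr9:70421505-70421804) and Top2a (minus strand, chr11:99024140-99024439) capitals mark the CHR and CCAAT letters, all taken from RefSeq.
Mcm6: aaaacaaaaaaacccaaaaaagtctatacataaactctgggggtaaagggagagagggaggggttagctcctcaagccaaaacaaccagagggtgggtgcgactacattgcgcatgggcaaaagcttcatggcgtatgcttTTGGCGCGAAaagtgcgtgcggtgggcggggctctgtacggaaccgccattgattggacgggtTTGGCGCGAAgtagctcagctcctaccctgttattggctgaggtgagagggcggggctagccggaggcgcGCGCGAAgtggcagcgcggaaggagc
Ccnb2: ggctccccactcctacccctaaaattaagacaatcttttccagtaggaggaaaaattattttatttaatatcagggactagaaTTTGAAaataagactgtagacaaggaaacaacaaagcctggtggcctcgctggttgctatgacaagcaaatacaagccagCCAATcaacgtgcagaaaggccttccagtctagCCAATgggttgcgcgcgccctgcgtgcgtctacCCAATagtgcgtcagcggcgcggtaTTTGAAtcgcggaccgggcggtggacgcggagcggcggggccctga
Top2a: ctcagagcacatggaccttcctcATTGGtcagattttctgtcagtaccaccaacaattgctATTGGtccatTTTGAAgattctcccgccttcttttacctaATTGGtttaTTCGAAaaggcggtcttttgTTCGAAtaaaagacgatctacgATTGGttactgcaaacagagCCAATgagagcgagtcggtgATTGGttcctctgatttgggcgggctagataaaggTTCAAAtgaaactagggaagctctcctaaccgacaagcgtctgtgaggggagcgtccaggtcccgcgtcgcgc

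Cell classes were gated on marker genes, none of which is a member: a cell needed UMIs of at least 2 markers of a class, a marker score of 0.2 or more and a lead of 0.1 over the next class. The shares of these markers follow from the gate and are no independent check of the classes. A UMI of Foxp3 was required of regulatory T cells (Treg), and one of Cd8a or Cd8b1 of CD8 T cells. The gate markers were found as follows: C1qa in 95.9% of macrophages, Cd8b1 in 98.3% of CD8 T cells, Foxp3 in 100% of Treg, Xcr1 in 90.8% of type 1 conventional dendritic cells (cDC1), Cd209a in 87.0% of type 2 (cDC2), Fscn1 in 97.9% of mature dendritic cells (mature DC) and Siglech in 100% of plasmacytoid dendritic cells (pDC). Ly6c2 was found in 91.7% of monocytes, but Vcan in only 18.3%. Other classes had weaker markers too: Ffar2 in 25.4% and Mgl2 in 54.5% of cDC2, Tlr3 in 45.2% of cDC1 and Tmem150c in 55.7% of mature DC. The gate left 757 cells (6.08%) without a class, and since the sort enriched dendritic cells the class sizes are those of the sort. A class with fewer cells and a class with less RNA per cell cannot be told apart in a sum, so levels are given per 10000 UMIs of a cell.

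A cell was counted as having a cell cycle signal when at least 3 of the 33 S phase and mitotic members had a UMI among its 2000 thinned UMIs. This is a range and not a cell type. In the tumour 616 of 2586 macrophages had the signal, 23.8% (exact 95% binomial interval 22.2 to 25.5%, which covers counting error only). By mouse the share was 27.5% in WT1, 28.5% in WT2, 17.6% in KO1 and 23.0% in KO2, a mean of 24.1% ± 4.99 (SD, n = 4). In the tumour monocytes gated beside them, 5 of 557 cells had it, 0.898% (0.292 to 2.08%). The lowest macrophage share of any mouse lay far above the highest monocyte share of 1.5% in WT2. Of the macrophages with several members, 205 had 2 or more S phase members and no mitotic one, 148 had 2 or more mitotic members and no S phase one, and 237 had 2 or more of both. The number of macrophages close to the limit was 252 with 2 members and 148 with 3.

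Macrophages with the signal were deeper before thinning, with a median of 28244 UMIs against 19861 in those without. At 2000 UMIs, C1qa was found in 96.6% of the macrophages with the signal and 94.1% of those without. The T cell marker Cd3d was in 0.812% and 1.47%, the B cell marker Cd79a in 1.79% and 2.23%, and the fibroblast collagen Col3a1 in 0.812% and 0.558%. The epithelial Epcam was in 0 of 616 cells with the signal and 0.102% of those without, and Krt18 was in 0.162% and 0.0508%. Dendritic cell markers were found as well: Xcr1 in 1.30% and 0.863%, Siglech in 0.812% and 0.203% and Fscn1 in 3.25% and 3.30%. The endothelial Pecam1 was in 2.60% and 4.01%, the neutrophil S100a9 in 0% and 0.355% and the NK cell receptor Ncr1 in 0.162% and 0%. Of these 11 markers of other cells, Fscn1 and Pecam1 reached the most in one mouse, 7.10% of the cells with the signal in KO1 and 8.82% in KO2. Their part in the result was not tested.

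Among the other classes of the tumour, 24 of 182 CD8 T cells had the signal (13.2%, interval 8.64 to 19.0%), with 18.8% in WT1, 8.33% in KO1 and 13.6% in KO2. WT2 had only 8 tumour CD8 T cells and entered no average. In the dLN the share was 4.36% of 1010 CD8 T cells and in the ndLN 7.17% of 879. In B cells it was 5.61% in dLN and 3.86% in ndLN, and in CD4 T cells outside the Treg gate 7.6% and 9.88%. These node lymphocytes, Treg not included, lay between the tumour macrophages and the tumour monocytes.

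Dendritic cells of the dLN covered the whole range. cDC1, which cross-present antigen, had the signal in 40 of 183 cells (21.9%, interval 16.1 to 28.6%), and in the ndLN in 22.5% of 120. cDC2, which present mainly to CD4 T cells, had it in 19 of 169 cells (11.2%, 6.91 to 17.0%) and in the ndLN in 6.25% of 112. Mature DC, the Ccr7-bearing cells that have migrated or been activated, had it in 5 of 420 cells (1.19%, 0.388 to 2.76%). In the ndLN it was found in 0 of 318, which allows a share of up to 0.943% when 3 counts are taken as the limit and of up to 1.15% by the exact interval. pDC, the interferon producers, had it in 1 of 165 cells (0.606%) and 1 of 115 (0.870%). The median depth was 17999.5 UMIs in cDC1, 10817 in cDC2, 7799 in mature DC and 8926 in pDC of the dLN, and the part of depth beyond the thinning was not tested. In the thinned cDC1 of the dLN, the gate marker Xcr1 was in 30% of cells with the signal and 49.7% of those without. By mouse it was 46.2% and 50% in WT1, 0% and 55.6% in WT2, 36.4% and 41.4% in KO1 and 15.4% and 60% in KO2. The mature DC marker Fscn1 was in 5% of the cDC1 with the signal and 0.699% of those without. The part of these marker differences in the cDC1 share was not tested.

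Treg of the dLN had the highest share of any class with at least 50 cells compared, 15 of 50 cells or 30% (17.9 to 44.6%), and also the widest spread. It was 43.75% in WT1, 50% in KO1, 20% in KO2 and 0 of 12 cells in WT2. Treg of the ndLN had it in 6.25% of 32 cells.

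**Figure D1:**
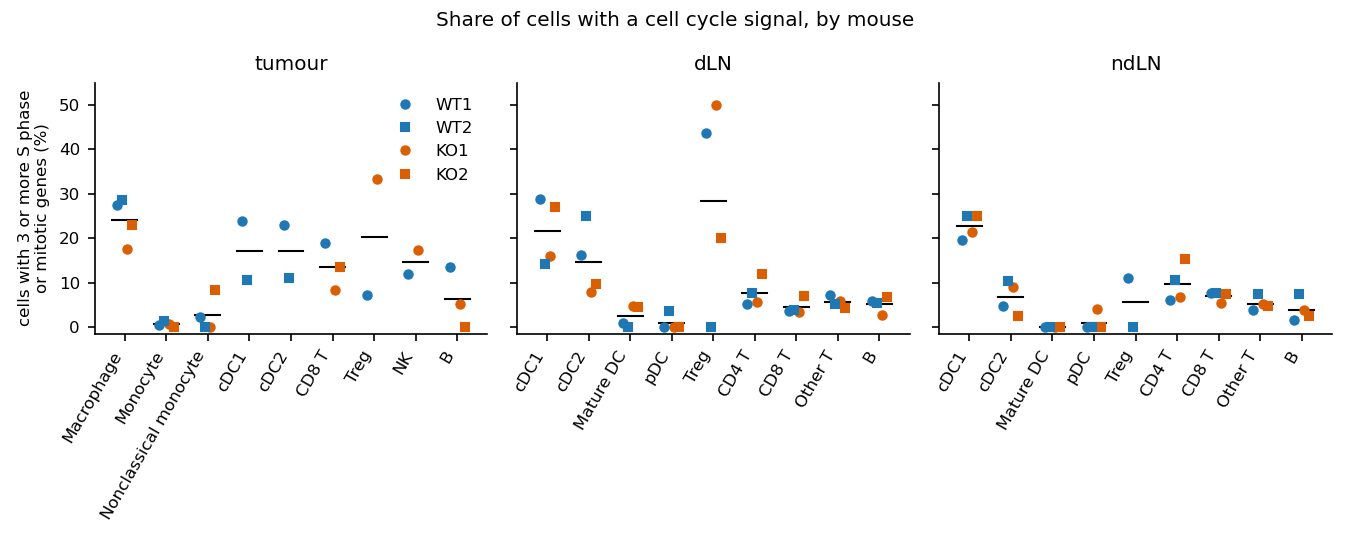
Percent of cells with 3 or more of the 33 S phase and mitotic genes at 2000 UMIs, for each class in tumour, dLN and ndLN. Each point is 1 mouse with at least 10 cells, lines are means over mice; tumour macrophages lie between 17.6% and 28.5%, tumour monocytes at 1.5% or below, and Treg of the dLN spread from 0 to 50%.

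Over all 40 genes the mean natural log value gave nearly the same order, with CD8 T above B cells of the dLN. It was 0.267 ± 0.0340 (SD, n = 4 mice) in tumour macrophages, 0.219 ± 0.0360 (n = 3) in tumour CD8 T cells, 0.0981 ± 0.0159 in nonclassical monocytes and 0.0835 ± 0.00307 in monocytes. A tumour macrophage had 12.0 ± 0.935 of the 40 genes detected before thinning and 3.41 ± 0.459 after it, against 3.32 ± 0.0238 and 1.08 ± 0.113 in a monocyte. In the dLN the means were 0.316 ± 0.153 in Treg, 0.263 ± 0.0508 in cDC1, 0.235 ± 0.0835 in cDC2, 0.178 ± 0.0166 in CD4 T, 0.158 ± 0.0176 in CD8 T and 0.126 ± 0.0157 in B cells. Mature DC had 0.113 ± 0.00852 and pDC 0.0930 ± 0.00792. These classes form no separate tiers. Treg, cDC1 and cDC2 overlapped by mouse, as did CD4 T with CD8 T cells and B cells with mature DC. Treg of WT2 (0.137) lay below every CD4 T and CD8 T sample and within the B cells, and cDC2 of KO2 (0.173) lay within the CD4 T and CD8 T samples. The highest pDC sample (0.101) lay just below the lowest mature DC sample (0.105).

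Ranked gene by gene on UMIs per 10000, among 5 tumour classes 27 of the 40 members were highest in macrophages and 11 in CD8 T cells, and 27 were lowest in monocytes. Among 9 dLN classes 28 were highest in Treg, 6 in cDC2, 5 in cDC1 and 1, Tubb5, in mature DC, while 27 were lowest in pDC and 12 in mature DC. Among 8 ndLN classes 22 were highest in cDC1 and 13 in CD4 T cells, and 27 were lowest in mature DC. These ranks are of means over mice and describe the classes without a test. The 5 tumour classes were macrophages, monocytes, nonclassical monocytes, CD8 T cells and B cells. Tumour classes with enough cells in fewer mice, cDC1, cDC2, Treg and NK cells among them, were not ranked. Tumour cDC1 had the signal in 23.2% of 82 cells, beside 23.8% of 2586 tumour macrophages. The ranks therefore do not place macrophages above the classes left out.

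**Figure D2:**
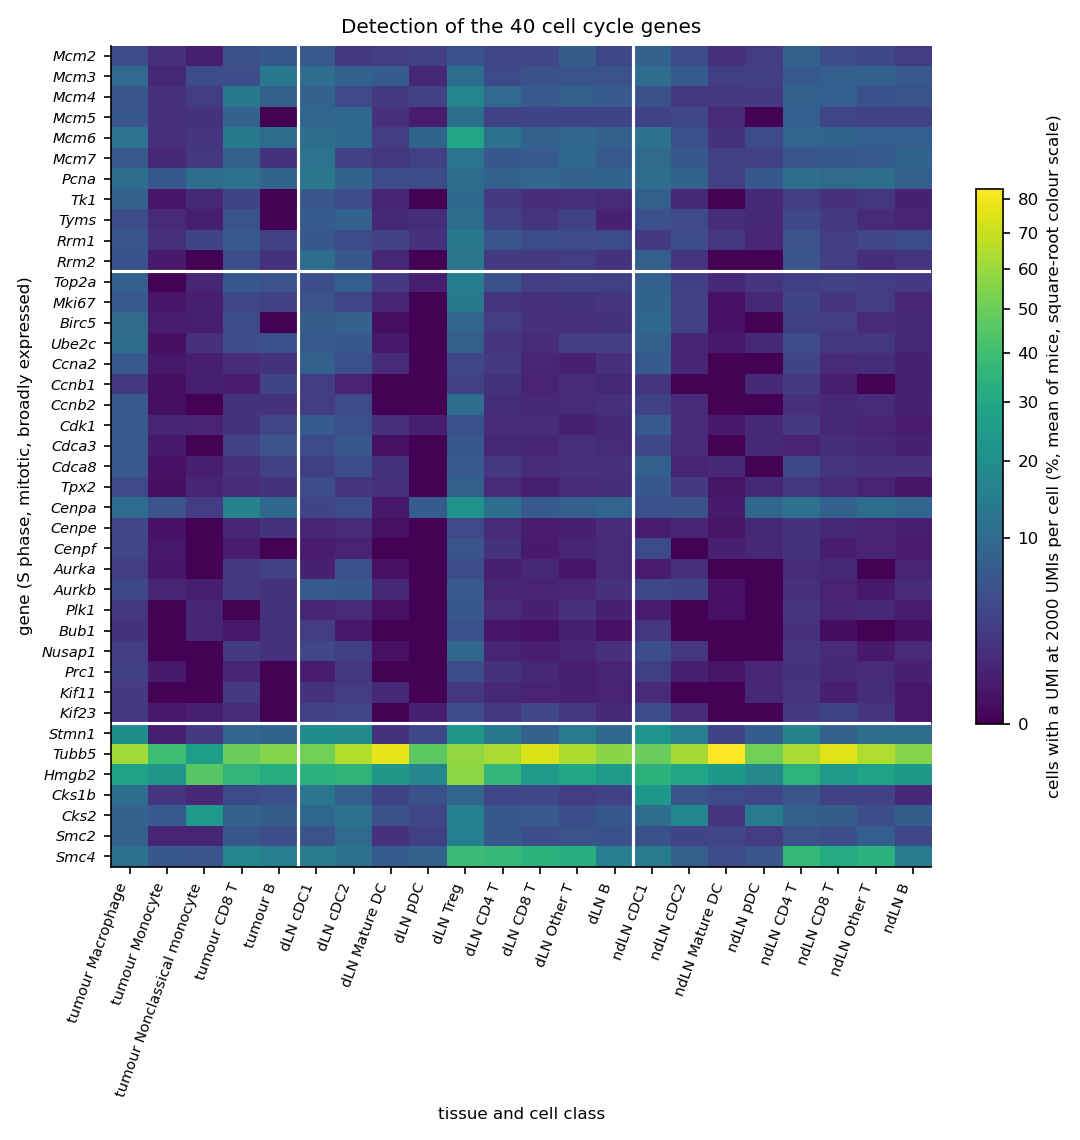
Percent of cells with a UMI of each of the 40 genes at 2000 UMIs, mean over mice, by tissue and class, on a square-root colour scale; white lines part the S phase, mitotic and broadly expressed groups. The S phase and mitotic blocks are bright in tumour macrophages, cDC1 and Treg of the dLN and dark in tumour monocytes, mature DC and pDC, whereas Tubb5, Hmgb2 and Smc4 are detected in every class.

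Tumour macrophages were compared with tumour monocytes of the same 4 mice, the blood-derived cells that can give rise to such macrophages. Of the 40 members, 38 were higher in macrophages and none lower, where 35.7% of the 9477 genes tested were higher and 15.9% lower (limma, paired by mouse, adjusted p under 0.05). The median difference of the members was 0.24 on the log2(1 + UMIs per 10000) scale, against 0.02 over all genes. That scale understates the change of low genes. All 11 S phase genes, all 22 mitotic genes and 5 of the 7 broadly expressed genes were higher. The gene filter counts the cells of both classes together, and the KO against WT fit of monocytes alone tested 14 members. For genes entering through the macrophages a higher level there was partly set by the filter. The exceptions were Hmgb2, a chromatin protein (difference 0.09, adjusted p = 0.244), and the kinase partner Cks2 (0.05, adjusted p = 0.146), named after their values were seen.

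Among the S phase members, Mcm6 in macrophages was 0.895 and 0.793 UMIs per 10000 in WT1 and WT2 and 0.646 and 0.584 in KO1 and KO2. In monocytes it was 0.103, 0.122, 0.0373 and 0.156 in the same order. The groups did not overlap (difference 0.44, SE 0.0351, adjusted p = 1.21e-07). Mcm5 was 0.441, 0.385, 0.279 and 0.281 in macrophages against 0.0493, 0.0332, 0.0505 and 0.0526 in monocytes (difference 0.25). Rrm2, the small subunit of ribonucleotide reductase, was 0.482, 0.350, 0.323 and 0.239 in macrophages and at most 0.0254 in monocytes, with 0 in KO2 (difference 0.23). Pcna was closer, at 0.531 to 0.679 in macrophages and 0.244 to 0.440 in monocytes (difference 0.23, SE 0.0328). Every one of these S phase genes was higher in the macrophages of every mouse. Mcm3 (0.35) and Tk1 (0.34) were the other S phase genes among the 10 largest differences.

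Among the mitotic members, Ube2c, the ubiquitin-conjugating enzyme of the anaphase-promoting complex, differed by 0.44 (SE 0.0304, adjusted p = 3.34e-08), and Birc5, which encodes survivin, by 0.42. Top2a was 0.709, 0.658, 0.399 and 0.582 UMIs per 10000 in macrophages of WT1, WT2, KO1 and KO2 and 0.0292, 0.0249, 0.0246 and 0 in monocytes (difference 0.36). Mki67 was 0.465, 0.476, 0.237 and 0.438 against 0.0303, 0.0102, 0.0257 and 0 (difference 0.28, SE 0.0247, adjusted p = 4.07e-07). KO1 had the lowest macrophage level of both genes and was still well above every monocyte sample. The smallest mitotic difference was that of the checkpoint kinase Bub1 (0.08), which also passed.

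In the broadly expressed group, Stmn1, a microtubule destabiliser, was 2.15, 2.11, 1.43 and 2.02 in macrophages and 0.132, 0.0793, 0.0439 and 0.0346 in monocytes (difference 0.83, SE 0.0422, adjusted p = 1.06e-09). Tubb5, a beta tubulin, was 7.54, 7.58, 5.64 and 6.56 against 2.51, 3.08, 3.0 and 3.70 (difference 0.93). Hmgb2 was 1.73 to 1.80 in monocytes and 1.70 to 2.76 in macrophages, and the groups overlapped. Cks1b (0.45) and Smc4 (0.32) completed the 10 largest differences. Macrophages had a median of 20615 UMIs and monocytes 9733. After thinning to 2000 UMIs, 24 of the 25 members still tested were higher. Of all calls, 69.2% were higher in macrophages, against 55% on summed counts, 48.2% after thinning and 85.3% with a pseudocount of 0.1, which moved the median of all genes to 0.17.

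**Figure D3:**
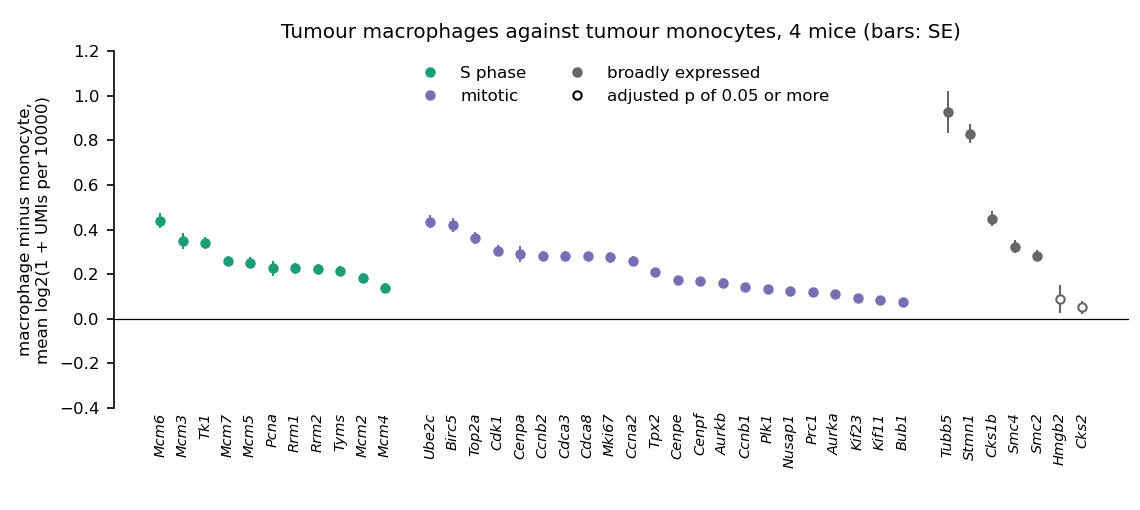
Difference of tumour macrophages minus tumour monocytes in mean log2(1 + UMIs per 10000) for the 40 genes in 4 mice, bars are the standard error from limma. All S phase and mitotic genes lie above 0, from 0.08 for Bub1 to 0.44 for Mcm6 and Ube2c, and the open points are Hmgb2 and Cks2, which did not pass.

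Of 36 other cell cycle genes, 21 of the 35 tested were higher in macrophages and 8 lower, where 35.7% and 15.9% of all genes were. Of the 8 lower genes 6 were on the list of inhibitors and brakes. They were the kinase inhibitor Cdkn1a, which encodes p21 (difference -1.32), Btg2 (-1.28), Btg1 (-0.98), Cdkn2d (-0.36), Cdkn1b (-0.25) and Klf2 (-0.23), and the other two were the G1 cyclin Ccnd3 (-0.69) and E2f2 (-0.16). Cdkn1a stood at 2.10 to 2.62 UMIs per 10000 in macrophages and 7.07 to 7.76 in monocytes. Higher in macrophages were the G1 cyclins Ccnd1 (0.86) and Ccnd2 (0.38) and their kinase Cdk4 (0.43), the dUTPase Dut (0.40), the licensing inhibitor Gmnn (0.37), E2f1 (0.24), Myc (0.20) and the kinase inhibitor Cdkn2c (0.14). The rest were Gins2, Cdc20, Racgap1, Uhrf1, Hells, Ccne1, Cdt1, Ccnf, Mybl2, E2f8, Foxm1, Cdc6 and Cdc25b, with differences of 0.04 to 0.16.

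Tumour CD8 T cells were compared with the tumour macrophages in WT1, KO1 and KO2. Of the 40 members 4 were higher and 19 lower in CD8 T cells, where 15.1% of genes were higher and 27.4% lower. Of the 22 mitotic genes 15 were lower and 1 higher, and of the 11 S phase genes 2 were higher and 1 lower. The difference between these groups of genes was not tested. The gene filter counts the cells of both classes together, and most of those cells were macrophages. The fit of CD8 T cells between tumour and dLN, given below, tested 3 mitotic genes. For genes entering through the macrophages a lower level in CD8 T cells was partly set by the filter. The median member difference was -0.07, against -0.01 over all genes. Lower were Tubb5 (-0.48), Stmn1 (-0.47), Cks1b (-0.35), Ube2c (-0.29), Birc5 (-0.27), Ccnb2 (-0.18), Cdca3 (-0.18), Cdk1 (-0.17), Tk1 (-0.17) and Cdca8 (-0.15). Higher were the centromeric histone Cenpa (0.38, SE 0.0848, adjusted p = 0.00231), Smc4 (0.34), Mcm6 (0.32, adjusted p = 7.37e-04) and Mcm4 (0.17).

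By mouse, in the order WT1, KO1 and KO2, Cenpa was 1.19, 1.99 and 1.13 UMIs per 10000 in CD8 T cells and 0.680, 0.537 and 0.820 in macrophages, with no overlap. Birc5 was 0.292, 0.312 and 0.374 in CD8 T cells and 0.849, 0.547 and 0.883 in macrophages. The markers most used for dividing cells did not pass: Mki67 was 0.302, 0.292 and 0.338 (difference -0.07, adjusted p = 0.264) and Top2a 0.592, 0.391 and 0.582 (difference -0.09, adjusted p = 0.158). Pcna (0.00, adjusted p = 0.992), Rrm2 (-0.00, 0.984), Mcm5 (0.09, 0.195) and Hmgb2 (0.20, 0.0576) did not pass either. With 3 mice of 22 to 85 CD8 T cells, these misses do not show equal levels. On summed counts 7 members were higher and 3 lower, and after thinning 0 higher and 9 lower of 26. The cause of these changes was not tested. Of all calls 35.5% were higher in CD8 T cells, against 45.3% on summed counts and 19.9% with a pseudocount of 0.1. Median depth was 7713 UMIs in these CD8 T cells.

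Of the other 36 genes 11 were higher and 11 lower in CD8 T cells, and the lower share is close to the 27.4% of all genes. Lower were Ccnd1 (-1.5), Cdkn1a (-0.96), E2f1 (-0.26), Gmnn (-0.24), Gins2 (-0.11), Rb1 (-0.11), E2f2 (-0.10), Cdc20 (-0.08), E2f8 (-0.06), Ccnf (-0.05) and Mybl2 (-0.05). Higher were Ccnd3 (1.03), Btg1 (0.99), Btg2 (0.76), Ccnd2 (0.70), Dut (0.59), E2f4 (0.35), Rbl2 (0.28), Cdk6 (0.27), Cdkn2d (0.26), Cdc25b (0.24) and Cdkn1b (0.24). Myc did not pass (-0.04, adjusted p = 0.616). The macrophage samples are shared with the comparison above.

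**Figure D4:**
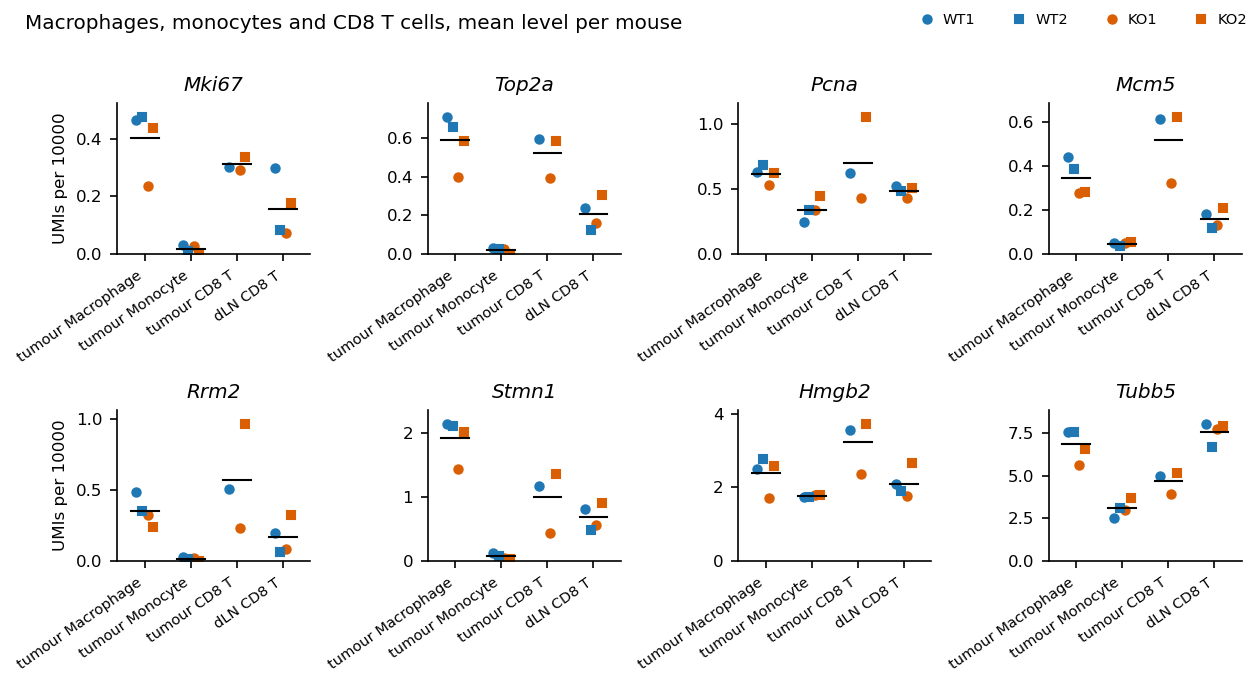
Mean UMIs per 10000 of 8 members in tumour macrophages, tumour monocytes, tumour CD8 T cells and dLN CD8 T cells, 1 point per mouse with at least 10 cells and a line at the mean of the mice. Mki67 and Top2a are near 0 in all 4 monocyte samples, Hmgb2 overlaps between macrophages and monocytes, and Tubb5 is higher in dLN than in tumour CD8 T cells.

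Within CD8 T cells, the tumour was compared with the dLN in the same 3 mice. Of the 40 members 20 were detected in enough cells to be tested, and 11 were higher and 3 lower in tumour, where 38.0% of genes were higher and 8.69% lower. Of the 10 S phase genes tested 7 were higher: Mcm6 (0.49), Mcm5 (0.25), Mcm3 (0.18), Pcna (0.17), Rrm2 (0.16), Mcm4 (0.15) and Tyms (0.09). Of the 22 mitotic genes only 3 were tested, of which Cenpa (0.58, SE 0.0722, adjusted p = 1.5e-05) and Top2a (0.17) were higher and Kif23, a midzone kinesin, lower (-0.08). Hmgb2 (0.51) and Cks2 (0.23) were higher in the broadly expressed group, and Tubb5 (-0.85, SE 0.102, adjusted p = 9.88e-06) and Smc4 (-0.42) lower. Stmn1 did not pass (0.09, adjusted p = 0.353) and Mki67 was not tested.

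In the order WT1, KO1 and KO2, Mcm6 was 1.52, 1.03 and 1.04 UMIs per 10000 in tumour and 0.466, 0.459 and 0.539 in dLN. Hmgb2 was 3.57, 2.37 and 3.72 in tumour and 2.08, 1.77 and 2.65 in dLN, higher in tumour in every mouse. Tubb5 was 4.95, 3.90 and 5.18 in tumour and 8.01, 7.72 and 7.87 in dLN, and Smc4 was 1.16, 1.11 and 1.44 against 2.18, 2.46 and 2.77. Mki67 was 0.302, 0.292 and 0.338 in tumour and 0.298, 0.0716 and 0.175 in dLN, so WT1 had nearly the same level in both. The direction of Tubb5 was thus opposite to that of the replication genes. On summed counts 3 members were higher and 2 lower, after thinning 3 and 2 of 11, and with every gene tested 19 and 3 of 40. Of all calls 81.4% were higher in tumour, against 68.7% on summed counts and 70.3% after thinning. The median depth was 7713 UMIs in tumour and 5373 in dLN CD8 T cells.

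Of the other cell cycle genes 10 of 22 were higher in tumour CD8 T cells and 1 was lower, near the shares of all genes (38.0% and 8.69%). The lower gene was the quiescence factor Klf2 (-1.88), at 2.64, 1.28 and 4.48 UMIs per 10000 in tumour of WT1, KO1 and KO2 and 6.67, 10.2 and 9.20 in their dLN. Higher were Ccnd3 (0.57), Dut (0.55), Cdk6 (0.39), E2f4 (0.39), Btg2 (0.37), Gmnn (0.15), Rbl2 (0.15), Cdc25b (0.14), Hells (0.09) and Ccne1 (0.07). Cdkn1b (-0.08), Ccnd2 (0.09) and Myc (-0.14) did not pass. In B cells none of 16 members and none of 19 other genes passed between tumour and dLN in 3 mice, where 0.0998% of genes did. Of the other genes there, Ccnd2 differed by 0.18, Cdkn1b by 0.15, Myc by -0.19 and Ccnd3 by -0.03.

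Mature DC were compared with cDC2 of the dLN in 4 mice. Of the 40 members 21 were detected in enough cells, and 1 was higher and 19 lower in mature DC, where 13.3% of genes were higher and 29.6% lower. The lower genes included 8 of 9 S phase genes tested, all 5 mitotic genes tested and 6 of 7 broadly expressed genes. The gene filter counts the cells of both classes together, so a gene low in mature DC can enter through cDC2. In the KO against WT fit of mature DC alone 1 mitotic gene was tested. For genes entering through cDC2 a lower level in mature DC was partly set by the filter. The largest were Stmn1 (-0.65, SE 0.109, adjusted p = 1.90e-05), Cks2 (-0.49), Hmgb2 (-0.46), Cks1b (-0.33), Smc4 (-0.30), Mcm6 (-0.26), Cenpa (-0.25), Mki67 (-0.23), Pcna (-0.23) and Mcm5 (-0.22). Top2a was lower by 0.21 on the log2 scale, and Rrm2 was not tested. Tubb5 alone was higher (0.56, SE 0.165, adjusted p = 0.00693).

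By mouse, Tubb5 was 12.2, 11.1, 12.1 and 9.09 UMIs per 10000 in mature DC of WT1, WT2, KO1 and KO2 and 6.80, 9.66, 7.07 and 5.22 in cDC2. Mature DC were higher in every mouse, although the cDC2 of WT2 lay above the mature DC of KO2. Stmn1 was 0.125, 0.0723, 0.384 and 0.460 in mature DC and 2.06, 5.86, 1.86 and 1.22 in cDC2. Mki67 was 0.0758, 0.0572, 0 and 0.0625 against 0.388, 0.887, 0.221 and 0.245. The WT2 value of cDC2 came from 12 cells and was the highest of both genes. Without WT2, and equally when 20 cells were asked of a sample, 1 member was higher and 12 were lower. After thinning 8 members were tested, 1 higher and 2 lower. Of all calls 30.9% were higher in mature DC, against 50.0% after thinning.

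Of the other genes 2 of 25 were higher and 10 lower in mature DC, where 13.3% of all genes were higher and 29.6% lower. Btg1 (1.69) and Cdkn1a (0.62), both brakes, were higher. Btg2 (-1.13), Ccnd3 (-0.81), Cdk4 (-0.70), Ccnd1 (-0.58), Cdkn2d (-0.56), Dut (-0.36), Racgap1 (-0.33), E2f4 (-0.25), Gmnn (-0.21) and E2f1 (-0.19) were lower. Cdkn1b (-0.09) and Ccnd2 (0.10) did not pass.

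**Figure D5:**
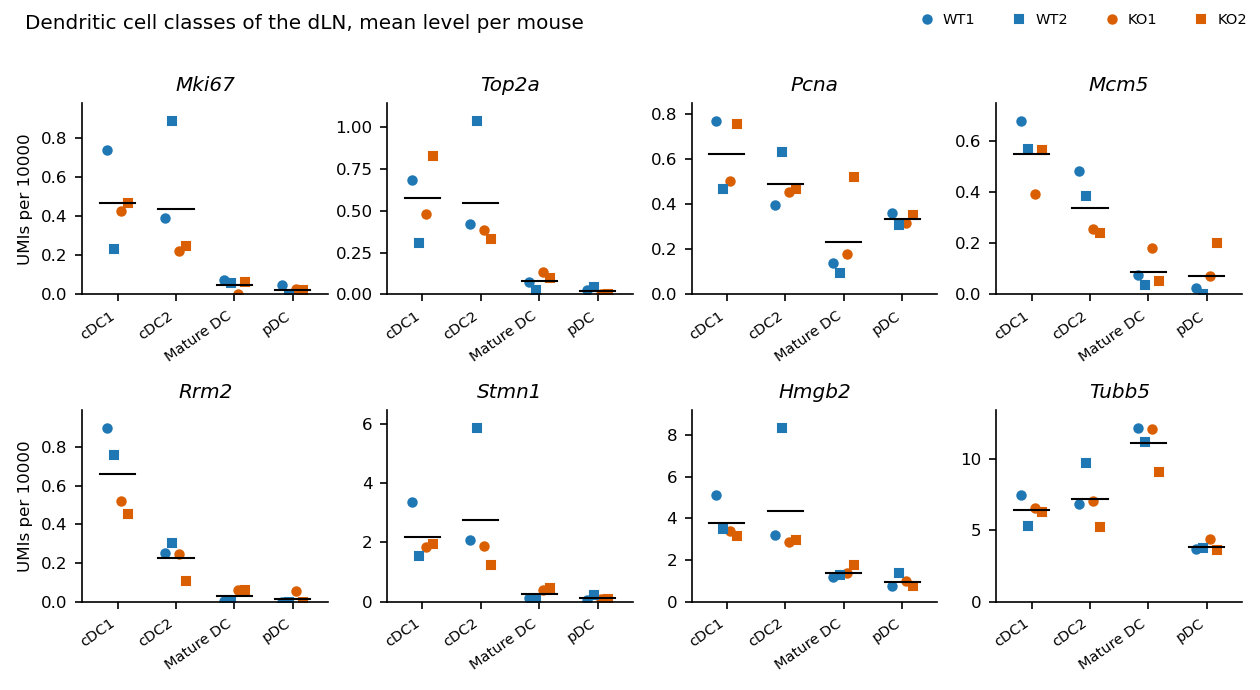
Mean UMIs per 10000 of 8 members in the 4 dendritic cell classes of the dLN, 1 point per mouse and a line at the mean. Mki67, Top2a, Rrm2 and Stmn1 are low in mature DC and pDC, Tubb5 is highest in mature DC and lowest in pDC, and the cDC2 point of WT2 (12 cells) stands above the others for Stmn1 (5.86) and Hmgb2 (8.36).

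In pDC, compared with the same cDC2 samples, 18 of 23 members tested were lower and none higher, where 11.6% of genes were lower and 18.3% higher. The lower genes were 6 of 10 S phase, 5 of 6 mitotic and all 7 broadly expressed genes. Here too genes could enter through cDC2, as the KO against WT fit of pDC alone tested 16 members. The largest were Stmn1 (-0.71, SE 0.0984, adjusted p = 1.96e-05), Hmgb2 (-0.63), Cks2 (-0.49), Tubb5 (-0.45), Ube2c (-0.31), Mcm3 (-0.27), Cks1b (-0.27), Top2a (-0.26), Mki67 (-0.25) and Smc4 (-0.24). Mcm5 was also lower (-0.24), and Pcna did not pass (-0.12, adjusted p = 0.202). In the order WT1, WT2, KO1 and KO2, Tubb5 was 3.65, 3.76, 4.35 and 3.61 UMIs per 10000 in pDC, below every cDC2 and every mature DC sample. Side by side, the Tubb5 difference from cDC2 was thus 0.56 in mature DC and -0.45 in pDC, and that of Stmn1 -0.65 and -0.71. Top2a in pDC was 0.0262, 0.0459, 0 and 0. After thinning 4 of 10 members were lower and none higher.

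Of the other genes 6 of 27 were higher and 9 lower in pDC, beside 18.3% and 11.6% of all genes. Klf2 (1.62), Btg1 (1.60), Cdkn2d (0.61), Ccnd1 (0.59), E2f4 (0.35) and Cdkn2c (0.27) were higher. Ccnd3 (-1.06), Cdkn1a (-1.0), Gmnn (-0.31), Dut (-0.31), Uhrf1 (-0.19), E2f2 (-0.14), Hells (-0.13), Myc (-0.11) and Gins2 (-0.10) were lower. Cdkn1b (0.02) and Ccnd2 (0.06) did not pass. The inhibitor Cdkn1a thus differed in opposite directions from cDC2 in mature DC (0.62) and pDC (-1.0), which share those cDC2 samples.

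In cDC1, compared with the same cDC2 samples, 2 of 40 members passed as higher and 1 as lower, where 8.22% of genes were higher and 8.53% lower. Kif23 (0.15, adjusted p = 0.0141) and Rrm2 (0.21, adjusted p = 0.0218) were higher and Cks2 lower (-0.24, adjusted p = 0.0402). Rrm2 was 0.899, 0.757, 0.521 and 0.456 UMIs per 10000 in cDC1 of WT1, WT2, KO1 and KO2 and 0.250, 0.303, 0.245 and 0.107 in cDC2. The result rested on single mice: 14 members were higher and 1 lower without WT2, whose cDC2 were 12 cells, and none passed without WT1 or without KO1. None passed after thinning. The few calls do not show equal levels: 10 of the 11 S phase genes had a difference above 0 (-0.01 to 0.21, median 0.13), and 15 of the 22 mitotic genes (median 0.01). Of the other genes 3 were higher, Klf2 (0.65), Btg1 (0.63) and Myc (0.25), and 4 lower, Cdkn1a (-0.82), Ccnd3 (-0.56), Cdkn2d (-0.46) and Cdc25b (-0.10). Ccnd1 (-0.21), Ccnd2 (-0.05) and Cdkn1b (-0.03) did not pass. Of all calls 49.1% were higher in cDC1, against 64.2% with a pseudocount of 0.1.

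Treg of the dLN were compared with the other CD4 T cells in 4 mice. Of 28 members tested 5 were higher and none lower, where 4.14% of genes were higher and 1.61% lower. They were Hmgb2 (0.66), Mcm6 (0.64, SE 0.139, adjusted p = 4.47e-04), Rrm2 (0.39), Mki67 (0.39) and Top2a (0.38). Mcm6 was 1.89, 1.22, 3.03 and 0.824 UMIs per 10000 in Treg of WT1, WT2, KO1 and KO2 and 0.623, 0.380, 0.570 and 0.553 in CD4 T cells, higher in Treg in every mouse. Mki67 was 1.84, 0, 1.18 and 2.79 in Treg and 0.190, 1.08, 0.152 and 0.454 in CD4 T cells, so WT2 ran the other way. These Treg were 20, 13, 12 and 11 cells. None of the 5 passed on summed counts, where the differences of Rrm2, Mki67 and Top2a were below 0. None passed without KO1, 1 passed without WT1 and 7 without WT2. Of all calls 72.0% were higher in Treg, against 88.6% on summed counts and 82.6% with every gene tested. Of the other genes 1 of 26, Dut (0.41), was higher. Ccnd2 (0.58), Cdkn1b (0.40), Myc (0.17) and Ccnd3 (-0.12) did not pass.

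Between dLN and ndLN no member passed in any of 8 classes. There were 184 tests of members (16 to 40 per class). Among all genes 0.388% passed in cDC2, 0.305% in other T cells, 0.235% in cDC1, 0.0491% in pDC and 0 in the other 4 classes. Other T cells are T cells outside the Treg gate with UMIs of both CD4 and CD8 markers or of neither. No member passed under any of the other settings tried.

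KO was compared with WT in 20 pairs of class and tissue, with 2 mice per genotype. No member passed in any (0 of 479 tests), where few of all genes passed. The share of all genes was 0.241% in mature DC, 0.0221% in cDC1, 0.0150% in other T cells and 0.0123% in pDC of the dLN. In the ndLN it was 0.0331% in cDC1, 0.0237% in cDC2 and 0.0123% in pDC, in tumour nonclassical monocytes 0.0936%, and in the other 12 pairs 0. Adding the droplet channel as a block gave 0 as well. In 23 pairs of class and tissue, ungated cells included, the mean over the 40 genes was lower in KO in 14, the number detected at 2000 UMIs in 14 and the share with the signal in 12. The shares of the 2 genotypes did not overlap in 5 of the 23. They were lower in KO in tumour macrophages, cDC2 of the dLN and CD8 T cells of the ndLN. In mature DC of the dLN and ungated cells of the ndLN they were higher in KO. The mean over the 40 genes did not overlap in 8 of the 23, and the number detected in 5. Full separation of 2 mice from 2 has an exact two-sided permutation p of 0.333. This many of 23 pairs can thus separate without any difference between genotypes.

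In tumour macrophages the KO mice lay below the WT mice. The share with the signal averaged 28.0% in WT and 20.3% in KO, a difference of -7.73 percentage points, and the genotypes did not overlap. An exact two-sided permutation test gave p = 0.333, the smallest that 2 mice against 2 allow. It did not pair the mice by droplet channel, although over genes the WT1 minus WT2 and KO1 minus KO2 differences correlated at 0.65. Of the 40 members only Cks2 had a difference above 0 (0.01), and the lowest was that of Tubb5 (-0.29). The median was -0.06, against -0.00 over all genes. None passed: Hmgb2 differed by -0.17, Stmn1 by -0.16, Mcm5 and Top2a by -0.10, Mki67 by -0.09, Rrm2 by -0.08 and Pcna by -0.04. Mki67 and Stmn1 were low in KO1 alone, and KO2 (0.438 and 2.02) lay close to both WT mice. For Mcm5 (0.279 and 0.281 in KO, 0.441 and 0.385 in WT) both KO mice were below both WT mice. The fit shared its spread with 3 node samples of 10 or 11 macrophages. In that fit even the targeted Havcr2 did not pass in these cells (0.646 and 0.563 in WT, 0.0708 and 0.0335 in KO, adjusted p = 0.451), whereas with at least 20 cells per sample it did (adjusted p = 0.00195). With 20 cells none of the members passed. Median depth was close in the 4 mice, 20453 to 20826 UMIs.

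In cDC2 of the dLN 1 of 34 members tested had a KO minus WT difference above 0, but none passed. How many of all genes lay above 0 is not given here. The count therefore does not show a change particular to the members. The differences were -0.41 for Stmn1, -0.26 for Tubb5, -0.23 for Hmgb2, -0.21 for Mki67, -0.17 for Top2a, -0.15 for Mcm5, -0.07 for Rrm2 and -0.03 for Pcna. The share with the signal was 16.1% and 25.0% in WT1 and WT2 and 7.81% and 9.68% in KO1 and KO2. WT2 had only 12 cells here, and without it 8 of 31 members were above 0, again without the count over all genes. Without WT1 the 12 WT2 cells were the only control sample.

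Mature DC of the dLN ran the other way. The share with the signal was 4.76% and 4.55% in KO1 and KO2 against 0.976% and 0 in WT1 and WT2, but the KO shares rest on 2 of 42 and 1 of 22 cells. The mean over the 40 genes overlapped between the genotypes, and of the 16 members tested 9 had a difference above 0. The G1 cyclin Ccnd1 was the only one of the other cell cycle genes to pass for KO against WT in any of the 20 pairs. It was 0.980 and 0.816 UMIs per 10000 in WT1 and WT2 and 1.94 and 2.57 in KO1 and KO2 (difference 0.54, SE 0.111, adjusted p = 0.0439).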

How the data were processed

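Cell Ranger (3.0.2) with mm10 is named in the submitters' processing notes, while for filters on cells and hashtags the sources used here give nothing. For each cell the authors deposited its mouse, its tissue and, per gene, the natural log of 1 plus the UMIs per 10000 UMIs of that cell. The UMIs were recovered as whole numbers for 100% of values (within 0.01). The members, gene lists and tests were chosen with earlier results of these data known.

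Cells were gated on the markers of the class as described, with no doublet removal. Per mouse, tissue and class with at least 10 cells, means of log2(1 + UMIs per 10000) were tested with limma 3.58.1 (trend, R 4.3.3) for genes with a UMI in 5% of the cells compared. Those cells were counted together, so a gene could enter through the group where it was higher. Two-sided p values were adjusted over all genes tested (Benjamini-Hochberg), with a threshold of 0.05. Count models were not used because the deposited unit is a log value. Classes and tissues were paired by mouse. KO and WT were not, since only the channel is shared. Over 20 pairs of class and tissue the median correlation of same-channel deviations was 0.11 (-0.10 to 0.65). It was above 0.1 in 10 and highest in tumour macrophages. Summed counts means log2(CPM + 1) of the summed UMIs of all cells of a sample. Named in each full account were up to 10 members past the threshold in each direction and always Mki67, Top2a, Pcna, Mcm5, Rrm2, Stmn1, Hmgb2 and Tubb5. In the cDC1 and Treg comparisons only members past the threshold were named. Of the other 36 genes those past the threshold were named and, in comparisons of classes or of tumour with dLN, Cdkn1a, Cdkn1b, Ccnd1, Ccnd2, Ccnd3 and Myc where tested. Antibody-lineage cells were too few to be compared with B cells. The scripts were tested on simulated data. Alternatives were another scale, pseudocount, gene filter, cell minimum, gate, mitochondrial limit, depth, the channel as a block, and each mouse left out. Counts of members under them are given without the share of all genes passing in each direction under the same setting.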

Additional observations from a re-analysis of the deposited data

Results flagged for a closer look

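Several classes that entered no comparison held cells with the cell cycle signal above the limit that a count of 0 allows. A few cells are enough to pass that limit, so the shares are descriptions of these classes. In the tumour, cells of the non-leukocyte gate had it in 56.1% of 41 cells (interval 39.7 to 71.5%). Of these 42 cells before thinning 97.6% had Col3a1, 95.2% Dcn and 2.38% Epcam, none had Ptprc, the gene of CD45, and their median depth was 57463.5 UMIs. Other T cells of the tumour (both CD4 and CD8 markers, or neither) had the signal in 22.9% of 35 cells. It was in 23.2% of 82 tumour cDC1, 13.9% of 36 tumour cDC2, 13.2% of 68 tumour Treg and 12% of 100 tumour natural killer (NK) cells. NK cells had it in 14.7% in dLN and 11.8% in ndLN, with 34 cells each.

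In the dLN, 41.7% of 12 antibody-lineage cells, 22.2% of 18 macrophages and 14.8% of 27 monocytes had the signal. Cells without a class had it in 10.4% in dLN, 16.4% in ndLN and 10.2% in tumour. Their mean natural log value over the 40 genes was higher in both KO than in both WT mice in ndLN (difference 0.125) and lower in both in tumour (difference -0.0437). The difference between these tissues was not tested.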

How the results depend on the processing

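Among the class comparisons, thinning to 2000 UMIs left fewer members tested, and those passing went from 38 to 24 in macrophages against monocytes, 23 to 9 in CD8 T cells against macrophages, 20 to 3 in mature DC, 18 to 4 in pDC, 14 to 5 in CD8 T cells of tumour against dLN, 5 to 1 in Treg and 3 to 0 in cDC1. On summed counts 10 passed in CD8 T cells against macrophages, 5 in CD8 T cells between tissues, 0 in Treg and 2 for KO against WT (other T cells, ndLN). With no gene filter 22 passed in CD8 T cells between tissues, 0 in Treg and 1 in cDC1. With 20 cells 13 passed in mature DC and 15 in cDC1. The stricter gate gave 1 in cDC1, and in Treg a pseudocount of 0.1 gave 3 and leaving out mitochondrial cells 2. Leaving out each mouse gave 13 to 19 in mature DC, 0 to 7 in Treg and 0 to 15 in cDC1. For KO against WT, where 1 mouse of a genotype then remains, calls changed in cDC2 and mature DC of the dLN. With the replicate block 0 members passed for KO against WT, and it changed no other call. B cells and dLN against ndLN stayed at 0 under every setting run. On summed counts the median of all genes moved from 0.03 to 0.25 in pDC and from -0.05 to -0.20 in mature DC.

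The share of tumour macrophages with the signal (24.1%) was 15.7% at 1000 and 34.8% at 4000 UMIs, 33.8% with 2 and 15.4% with 5 members asked, and 15.3% on mitotic members alone. That of tumour CD8 T cells (13.6%) was 7.82%, 33.3%, 29.7%, 6.00% and 5.52% in the same order. In the dLN the order of classes changed with depth. At 4000 UMIs B cells (5.22%) had 22.7%, above CD4 T (20.0%) and CD8 T cells (10.9%) and near cDC2 (23.5%). At 1000 mature DC (2.57%) had 0. Cells shallower than each depth were left out, so the cells compared differ between depths. The median of dLN B cells was 3078.5 UMIs, with 12333 in those with the signal at 2000 UMIs and 3148 in those without. The part of this change of cells was not tested.

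Of the named members, 12 differences changed sign under some setting, 4 of them past the threshold as reported (Rrm2, Mki67 and Top2a in Treg and Mcm3 in CD8 T cells between tissues). On summed counts Rrm2 (-0.66), Mki67 (-0.52) and Top2a (-0.63) in Treg were below 0, and in CD8 T cells against macrophages Mki67 (0.19), Top2a (0.31) and Rrm2 (1.08) above it. There Pcna was -0.29 with a pseudocount of 0.1, -0.0086 without mitochondrial cells and, leaving out each mouse, -0.0803 (KO2) to 0.0710 (KO1). Rrm2 was 0.0355 with the stricter gate and -0.0404 (without KO2) to 0.0295 (without KO1). In CD8 T cells between tissues, Mcm3 was -0.0029 after thinning, and Stmn1 ran from -0.0216 (without WT1) to 0.167 (without KO2). For KO against WT in cDC2 of dLN, Pcna was 0.0198 on summed counts and 0.14 after thinning. Leaving out each mouse gave -0.0927 to 0.0412 for Pcna, -0.505 to 0.0550 for Hmgb2 and -0.546 to 0.0203 for Tubb5, each highest without WT2. The cause of these changes was not tested.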
